A study of Homo sapiens with 6 samples.

Results

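Thymidine glycol (Tg) is thymidine whose base has been oxidised, and the glycosylases NTHL1 and NEIL1 cut it out of DNA in base excision repair. The 5 protein-coding genes described here, SLC1A7, GRM4, NTM, CTNND2 and KNDC1, work mainly in neurons and were picked because each took a larger share of the wild-type than of the knockout list of Tg sites. A site belonged to a gene when its midpoint lay in the RefSeq gene body. By this rule the genes, 5 of 20037 protein-coding genes on the main chromosomes, held 17 of the 9373 double-knockout sites (95% counting interval 9.90 to 27.2) and 26 of the 3688 wild-type sites (17.0 to 38.1). The genes were chosen by their numbers of sites in the lists, which are given as a description, with no test.

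Mapping was by DPC-Seq, in which extracted and fragmented genomic DNA is incubated with NTHL1 protein under conditions that tie the enzyme to the DNA where it removed a base, and the bound fragments are sequenced. All samples came from HEK293T, an established line of human embryonic kidney origin that expresses SV40 large T antigen, with no treatment of the cells. The NTHL1-/-,NEIL1-/- double knockout and the wild type were each represented by 2 labelled libraries and 1 input library, and by 1 deposited list of sites. The sources used here do not say whether the knockout was 1 clone or how a list was made from its 2 libraries. No value below therefore has a spread between replicates, and no difference between the genotypes has a p-value.

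The genes have different roles at synapses and in neuronal shape. SLC1A7 encodes the glutamate transporter EAAT5, known from photoreceptors and bipolar cells of the retina, which also conducts chloride. GRM4 encodes a metabotropic glutamate receptor of presynaptic terminals that couples to inhibitory G proteins. NTM encodes neurotrimin, a membrane-anchored adhesion protein of the IgLON family. CTNND2 encodes delta-catenin, an armadillo-repeat protein that binds cadherins. KNDC1 encodes a Ras guanine nucleotide exchange factor that was studied in dendrites of mouse cerebellar neurons. HEK293T cells are not neurons, the lists mark DNA damage rather than transcripts, and the activity of these genes was not measured here.

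Counted as sites, 4 of the genes had more sites in wild type and 1 had the same number. SLC1A7 held 2 double-knockout and 5 wild-type sites. GRM4, CTNND2 and KNDC1 each held 3 double-knockout and 5 wild-type sites. NTM held 6 in each list, so its larger wild-type share reflects only the shorter wild-type list. Per 10000 sites of a list, the double-knockout minus wild-type difference was −11.4 for SLC1A7, −10.4 for GRM4, CTNND2 and KNDC1 and −9.87 for NTM. The 5 genes were not the first in this order. PTPRN2 (−34.1), CDH4 (−19.3) and COL5A1 (−12.1) came before SLC1A7, and COL22A1 (−10.9) came between SLC1A7 and the others. GALNT9, the gene next in order after NTM, had −9.38. A larger share of the wild-type list was found in 35.6% of the protein-coding genes with a site in either list, and in 94.1% of the 102 genes with at least 3 wild-type sites. At least as many wild-type as double-knockout sites were held by 43.1% of those 102 genes. The rule used this contrast, so nothing is read from these 5 genes against the background.

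Counted as places on the genome, most of the difference in number went away. Overlapping sites of either list were joined into loci, and the 5 genes held 21 loci, of which 13 were in both lists, 3 only in the double knockout and 5 only in wild type. The genes thus had 16 double-knockout loci and 18 wild-type loci. Of the 9 more sites in the wild-type list, 7 lay in the 13 loci of both lists, where 14 double-knockout sites stood against 21 wild-type sites. SLC1A7 had 1 locus in each list, GRM4 and CTNND2 had 3 in each and NTM 6 in each. Only KNDC1 kept more wild-type loci, with 3 in the double knockout and 5 in wild type. That surplus did not outlast a wider joining. With sites within 10 kb counted once, KNDC1 and CTNND2 each had 3 in the double knockout and 2 in wild type. NTM then had 4 and 5, and SLC1A7 and GRM4 had equal numbers. Relative to the length of the lists, the wild-type share was still the larger one in all 5 genes (17.1 per 10000 double-knockout loci and 51.1 per 10000 wild-type loci over the 5), as in 93.1% of genes with at least 3 wild-type sites.

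Counted as length, 4 of the 5 genes had more base pairs under double-knockout sites. In SLC1A7 the sites covered 5948 bp in the double knockout and 5576 bp in wild type. In GRM4 they covered 4019 bp in the double knockout and 3023 bp in wild type. In NTM they covered 3601 bp in the double knockout and 2937 bp in wild type, and in CTNND2 2823 bp and 1834 bp in the same order. KNDC1 was the exception, with 1907 bp in the double knockout and 2283 bp in wild type. More base pairs in the double-knockout list was also the case for 88.2% of genes with at least 3 wild-type sites. As a share of all base pairs its list covered, wild type was the larger in all 5 genes, as in 85.3% of genes with at least 3 wild-type sites, with 39.1 of every 10000 bp of the double-knockout list and 92.0 of every 10000 bp of the wild-type list lying in the 5. The description of these genes as richer in wild-type sites thus holds for their shares of the lists, for the number of sites in all but NTM, and for the length covered in KNDC1 alone.

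**Figure D1:**
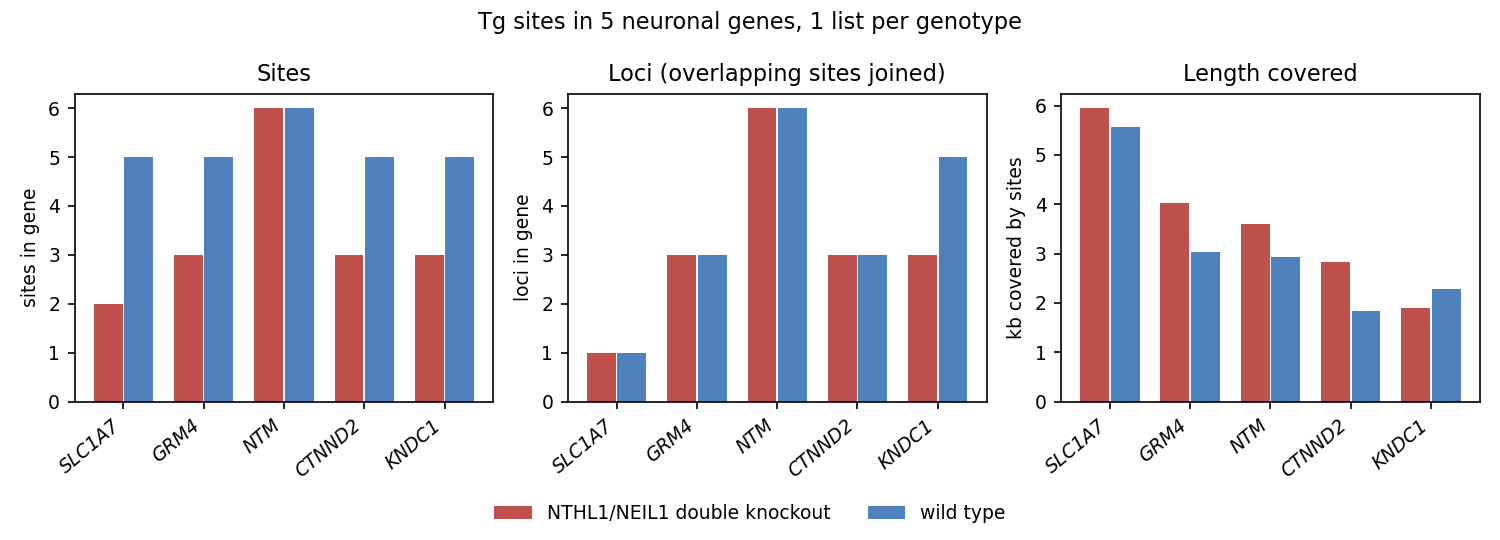
Number of Tg sites (left), of loci after joining overlapping sites (middle) and of kilobases covered by sites (right) in each gene, with bars for the double-knockout and the wild-type list. SLC1A7, GRM4 and CTNND2 have fewer double-knockout sites but equal numbers of loci, and only in KNDC1 do wild-type sites cover more length.

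The locus in SLC1A7 showed this most clearly. It spans 6349 bp on chromosome 1, 53095545 to 53101893, in the part of the gene nearer its 3′ end. The double-knockout list had 2 sites there, of 3533 bp and 2415 bp, with fold enrichments over background of 9.63 and 10.4. Fold enrichment is the authors' value, taken here as reads at the summit plus 1 over the peak caller's background plus 1. The wild-type list had 5 sites there, in order of position 321, 949, 3158, 693 and 455 bp wide, with fold enrichments of 7.25, 3.55, 8.77, 8.37 and 3.74. The gaps between these wild-type sites were 177, 142, 115 and 149 bp, all shorter than the narrowest site of the wild-type list (243 bp). Both lists therefore marked nearly the same stretch, the double knockout as a pair of wide sites and wild type as 5 pieces. From the lowest backgrounds of the lists, the double-knockout data were estimated to be 1.61 times deeper, though total reads are unknown. How far depth or the settings of the peak caller set the number of pieces was not tested.

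The SLC1A7 locus held some of the widest and strongest sites of both lists, beside weak wild-type pieces. By width the 3533 bp site ranked 4 of 9373 in the double knockout, and the 3158 bp site ranked 2 of 3688 in wild type. By −log10 q, the caller's adjusted significance, the double-knockout sites ranked 80 and 77, and the wild-type sites ranked, in order of position, 382, 3284, 136, 163 and 3302 of 3688. Whole reads at a summit could be recovered from the deposited values. The double-knockout sites had 44 reads (95% counting interval 32.0 to 59.1) and 42 reads, and the wild-type sites 19, 14, 24 (15.4 to 35.7), 23 and 12 reads. The ratio of depth times fragment length between the lists was estimated as 1.69 from their lowest backgrounds. Divided by it, the highest double-knockout value was 26.0 reads, against 24 in wild type. Among the 2613 loci of both lists, this was the only one with as many as 5 wild-type sites.

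GRM4 had 3 loci, all of them in both lists. The widest spans 2892 bp (chromosome 6, 34070725 to 34073616), with 1 double-knockout site of 2826 bp and 3 wild-type sites of 518, 1258 and 323 bp. That double-knockout site had 42 reads and a fold enrichment of 5.53. The wild-type sites had 13, 19 and 14 reads and folds of 4.33, 3.83 and 5.98. Its width ranked 12 in the double-knockout list. The other two loci had 1 site in each list. At 34031859 to 34032361 there were 22 double-knockout and 11 wild-type reads (folds 6.07 and 4.71), and at 34044372 to 34045092 there were 26 and 13 reads (7.83 and 5.09) in the same order. All the surplus of wild-type sites in this receptor gene came from the widest locus.

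CTNND2 had its surplus in the same form. At chromosome 5, 11239981 to 11241155, 1 double-knockout site of 1175 bp stood against wild-type sites of 243 and 360 bp, separated by 458 bp. The double-knockout site had 21 reads and a fold of 4.41, and the wild-type sites had 13 and 15 reads and folds of 4.02 and 6.54. At 11310609 to 11312099, 1 double-knockout site of 1324 bp with 28 reads stood against wild-type sites of 416 and 558 bp with 12 and 10 reads. A further wild-type site of 257 bp with 8 reads, at 11312208 to 11312464, lay 275 bp beyond the end of that double-knockout site and counted as unshared. The double knockout alone had a site of 324 bp with 16 reads at 11181759 to 11182082, which was 57989 bp from any wild-type site. Over the whole gene, 933 kb long, all sites thus fell in 3 neighbourhoods.

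**Figure D2:**
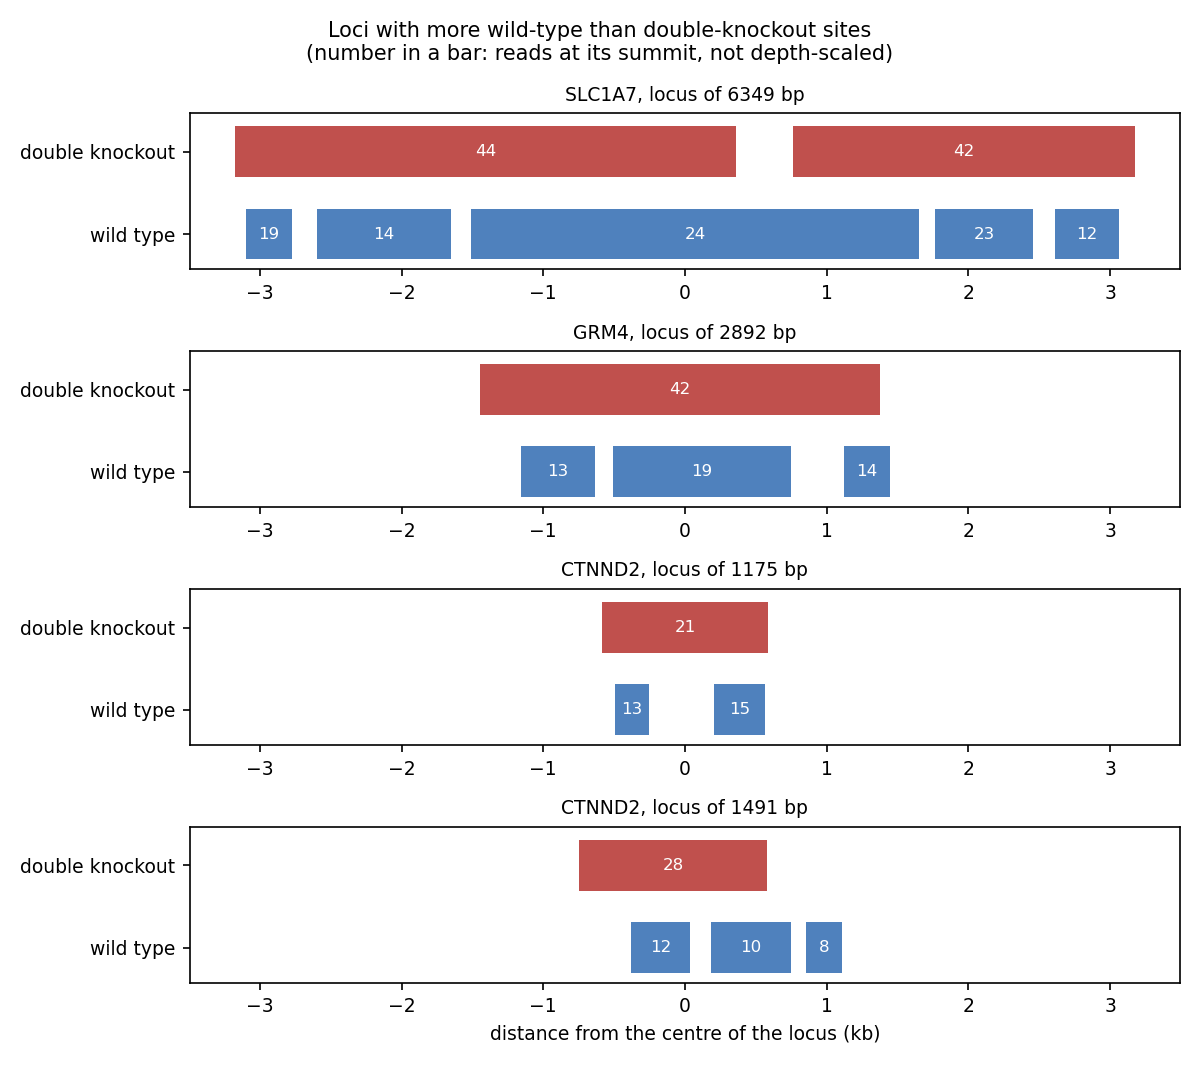
The 4 loci of the 5 genes that hold more wild-type than double-knockout sites, drawn to one scale as distance from the centre of the locus in kb, with double-knockout sites above wild-type sites and the reads at each summit printed in the bars. The rightmost wild-type bar of the lowest panel (8 reads) lies outside the double-knockout site. In each panel the same stretch holds fewer double-knockout than wild-type sites, and in SLC1A7 the widest wild-type site spans the gap between the double-knockout sites.

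NTM showed no such splitting. Its 5 loci of both lists each had 1 site per list, all at least 590 bp wide in the double knockout, and they lay at intervals along 966 kb of chromosome 11. The pair at 131680259 to 131680898 had 42 double-knockout reads (30.3 to 56.8) and 14 wild-type reads (7.65 to 23.5), or 24.8 depth-scaled reads against 14. The pairs at 131865548 to 131866294 and 131867319 to 131867908 had 24 and 18 double-knockout reads, against 10 and 15 wild-type reads. The pairs at 132125324 to 132126008 and 132162177 to 132163035 had 19 double-knockout reads each, against 14 and 11 in wild type. The double knockout alone had a site at 131681527 to 131681945 (17 reads), 704 bp from a wild-type site, and wild type alone had one at 131654607 to 131654849 (10 reads), 25409 bp from a double-knockout site. The lists therefore named nearly the same places in this adhesion gene.

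KNDC1 held 3 loci found in wild type alone, where NTM and CTNND2 held 1 each and SLC1A7 and GRM4 none. Within its 66.2 kb on chromosome 10, the lists shared 2 loci. At 133177196 to 133178202 the double knockout had 27 reads over 1007 bp and wild type 17 reads over 542 bp. At 133208714 to 133209392 there were 24 double-knockout and 14 wild-type reads, in a stretch that also lies in the long non-coding RNA gene LOC105378573. The double knockout alone had 1 site, at 133166394 to 133166685 with 16 reads. Wild type alone had 3, at 133174731 to 133174990, 133175687 to 133176320 and 133185156 to 133185398, with 15, 12 and 12 reads. These lay 2205, 875 and 6953 bp from the nearest double-knockout site. Their −log10 q values of 3.10, 3.87 and 4.83 stood on both sides of the wild-type list's median of 4.59.

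Over the 5 genes, 14 of 17 double-knockout sites (82.4%, exact binomial interval 56.6% to 96.2%) shared at least 1 bp with a wild-type site, where 28.3% of the whole double-knockout list did. Of the wild-type sites, 21 of 26 (80.8%, 60.6% to 93.4%) were shared, where 75.3% of the whole wild-type list were. Intervals cover counting error only, and sites of 1 locus are not independent. Unshared sites had 16 to 17 reads in the double knockout and 8 to 15 in wild type, within the lower part of the range over all sites of the genes (16 to 44 and 8 to 24). In SLC1A7 and GRM4 every site was shared. In the 5 genes, 4 of the 13 loci of both lists had more wild-type sites, beside 5.55% of the 2613 loci genome-wide, and none had more double-knockout sites, beside 1.11%. Because a locus split into several wild-type sites raises the number by which the genes were chosen, nothing is read from these shares.

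Sites of the 5 genes were wide in the double knockout. A width of at least 1 kb was reached by 6 of the 17 double-knockout sites (5.81% of that whole list) and by 2 of the 26 wild-type sites (4.53% of that list). The median width was 640 bp in the double knockout and 486.5 bp in wild type, beside 409 bp and 380 bp over the whole lists. A wide double-knockout site that faces several wild-type sites helps a gene meet the rule, so these widths only describe the genes. In 11 of the 13 loci of both lists the double-knockout sites covered more base pairs, and the double-knockout length was a median 1.35 times the wild-type length (0.769 to 2.39). The same was the case in 82.7% of all loci of both lists, with a median ratio of 1.29. The exceptions were the NTM loci at 132125324 and 132162177.

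Within its own list, a double-knockout site of these genes was usually strong and a wild-type site was usually not. Of the double-knockout sites, 15 of 17 had a −log10 q above their list's median of 5.88, with values from 3.48 to 27.5. Of the wild-type sites, 9 of 26 were above their list's median of 4.59, with values from 2.52 to 14.3. The lists differ in length and depth, so these positions describe each list and do not compare them. A locus split into several wild-type sites, some of them weak as in SLC1A7, helps a gene meet the rule. Shared sites also made up 14 of the 17 double-knockout sites, against 28.3% of that whole list. The positions therefore only describe the genes.

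Reads at the loci of both lists were compared after dividing double-knockout reads by 1.69 and taking the strongest site of each list. The double-knockout to wild-type ratio had a median of 1.08 over the 13 loci and ranged from 0.709 to 1.77. It was above 1 at 9 of them, beside 39.3% of all 2613 loci of both lists, whose median was 0.929. These loci lie in genes chosen by the same lists, and several share a gene, so nothing is read from this comparison. The highest ratio was at the NTM locus 131680259 to 131680898 and the lowest at the NTM locus 131867319 to 131867908, so that the extremes were in 1 gene. In SLC1A7 it was 1.08, in GRM4 1.18, 1.18 and 1.31, in CTNND2 0.827 and 1.38, and in KNDC1 0.939 and 1.01. With 10 to 24 wild-type reads a locus, the counting intervals of single loci are wide. The intervals of the lists, after this scaling, overlapped at each of the 13.

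**Figure D3:**
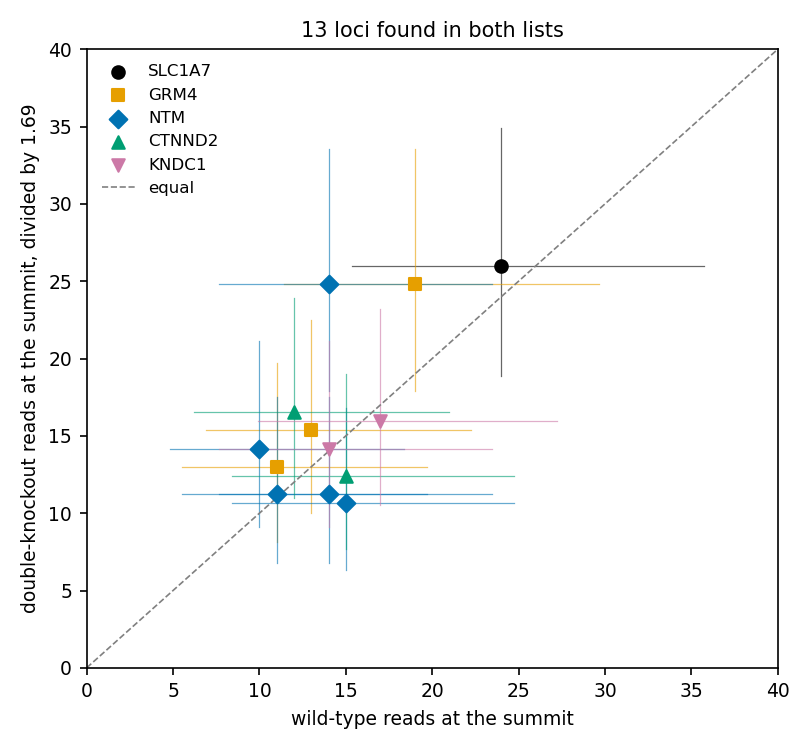
Reads at the strongest summit of each of the 13 loci found in both lists. Wild-type reads are on the horizontal axis and double-knockout reads divided by 1.69 on the vertical axis. The divisor is the ratio of depth times fragment length, estimated from the lowest backgrounds. Lines are exact 95% Poisson intervals and the dashed line marks equal values. Points lie on both sides of the line, 9 of 13 above it, and the SLC1A7 locus has 26.0 and 24 reads.

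The genes lay at very different distances from chromosome ends, measured to the outermost annotated gene or site. KNDC1 was near the end of the long arm of chromosome 10, with sites 0.570 to 0.612 Mb from it. NTM was near the end of the long arm of chromosome 11, with sites 2.91 to 3.42 Mb from it. CTNND2 sites were 11.2 to 11.3 Mb from the end of the short arm of chromosome 5. GRM4 sites were 33.9 to 34.0 Mb, and SLC1A7 sites 53.1 Mb, from the ends of the short arms of chromosomes 6 and 1. Within 5 Mb of an end were 9 of 17 double-knockout sites of the 5 genes (18.4% of the whole list on the main chromosomes) and 11 of 26 wild-type sites (27.2%). All of these were in NTM and KNDC1, so the shares follow from where 2 of the genes are. SLC1A7, GRM4 and CTNND2 lay outside the end regions.

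**Figure D4:**
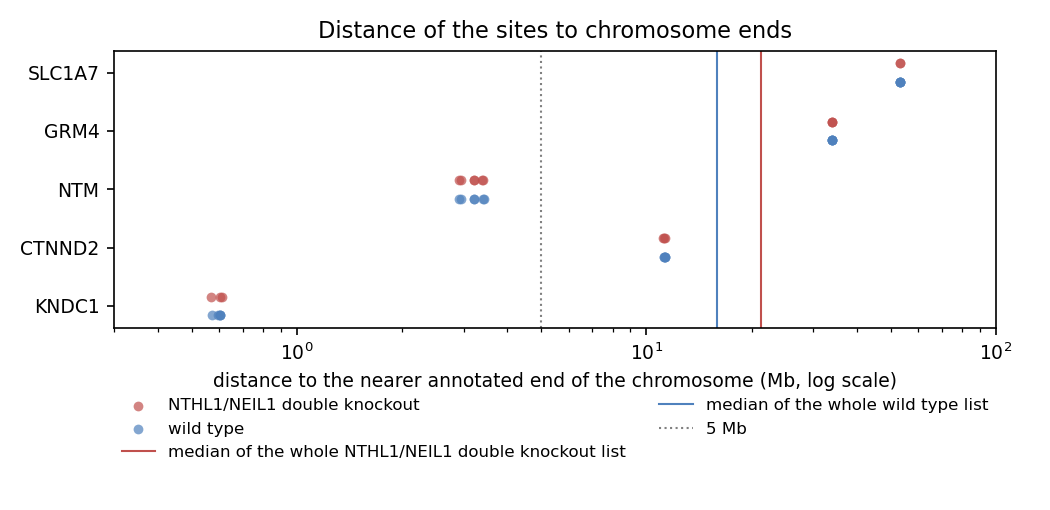
Distance of every site of the 5 genes to the nearer annotated end of its chromosome in Mb on a log scale, with double-knockout sites above wild-type sites of a gene, and lines for the medians of the whole lists and for 5 Mb. KNDC1 and NTM sites lie inside 5 Mb, and CTNND2, GRM4 and SLC1A7 sites outside it.

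None of the 43 sites overlapped a RefSeq promoter window, which runs from 250 bases before to 50 bases after a transcript start, of any gene. Few sites did in all, with 0.757% of the double-knockout list and 0.841% of the wild-type list. The nearest was the KNDC1 site found only in the double knockout, 6.13 kb from the gene's own window, and for the other genes the nearest site was 37.1 to 276 kb away. In SLC1A7, GRM4 and CTNND2 every site lay in the part of the gene nearer its 3′ end, at 74.1% to 84.5%, 60.0% to 90.2% and 63.5% to 77.5% of the gene's length. NTM sites ran from 29.4% to 82.0% and KNDC1 sites from 9.55% to 73.8%. Exon and intron boundaries and the sequence under the sites were not used here.

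**Figure D5:**
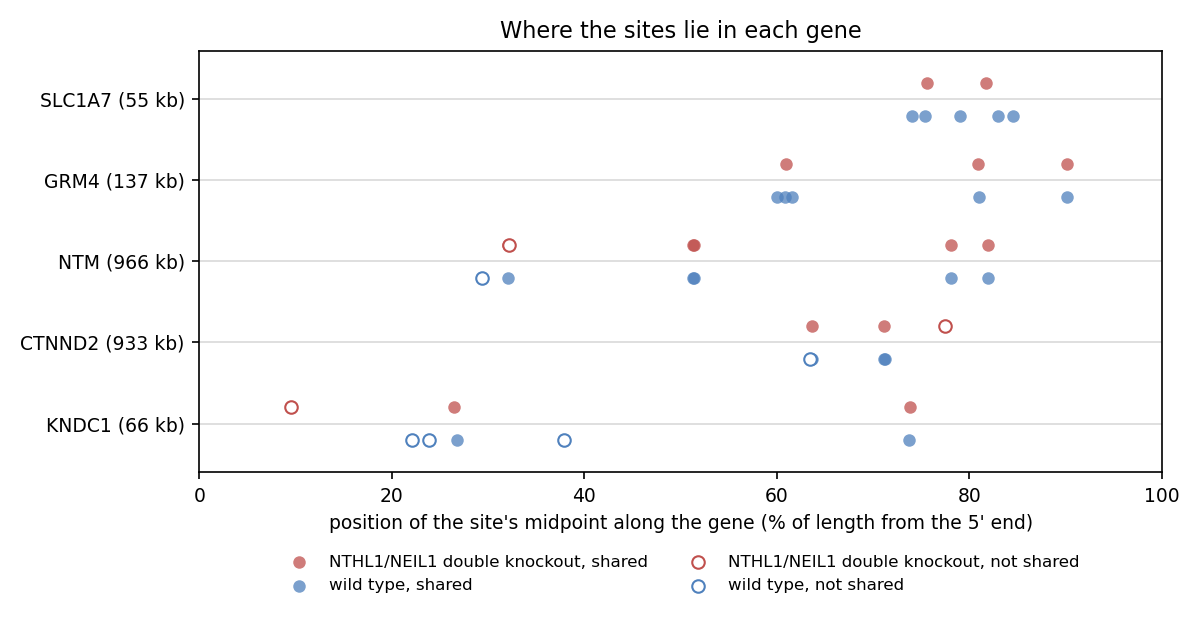
Position of each site's midpoint as a percentage of the gene's length from its 5′ end, with double-knockout sites above wild-type sites, filled where the site overlaps one of the other list and open where it does not. Shared sites line up between the lists, and the 3 wild-type-only sites of KNDC1 lie between 22.1% and 37.9%.

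Sites per length were also counted, and since the genes were chosen by their sites these values only describe them. KNDC1 had 4.53 double-knockout and 7.55 wild-type sites per 100 kb, where its chromosome had 0.337 and 0.161. SLC1A7 had 3.61 and 9.02 per 100 kb in the same order, with 0.451 and 0.159 for chromosome 1, and GRM4 had 2.19 and 3.65, with 0.295 and 0.115 for chromosome 6. The long genes were less dense. NTM had 0.621 per 100 kb in each list and CTNND2 had 0.322 in the double knockout and 0.536 in wild type. The rate of its chromosome would give CTNND2 2.22 double-knockout and 0.843 wild-type sites and NTM 2.88 and 0.944, where CTNND2 had 3 and 5 and NTM 6 and 6. Copy number in HEK293T is uneven and was not corrected for.

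The surroundings of the genes were counted too. In the 1 Mb on either side of each gene, outside its body, lay 62 double-knockout and 29 wild-type sites in all, or 66.1 and 78.6 per 10000 sites. KNDC1 accounted for most of these, with 37 double-knockout and 20 wild-type sites. SLC1A7 had 14 and 6, NTM 6 and 2, GRM4 3 and 0, and CTNND2 2 and 1. As shares of the lists, the wild-type value was the larger one beside 3 of the 5 genes, KNDC1 (39.5 double-knockout and 54.2 wild-type sites per 10000), SLC1A7 (14.9 and 16.3) and CTNND2 (2.13 and 2.71). It was the smaller one beside NTM (6.40 and 5.42) and GRM4 (3.20 and 0). Of the nearest protein-coding neighbours, OPCML next to NTM held 5 double-knockout sites and 1 wild-type site. ADGRA1 next to KNDC1 held 2 and 0, CPT2 next to SLC1A7 and DNAH5 next to CTNND2 held 1 and 0 each, and DAP on the other side of CTNND2 held 0 and 1. PODN, MLN, LOC124901225, SNX19 and UTF1 held none in either list.

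Of 24 relatives of the genes, 8 (33.3%) held a double-knockout site and 6 (25%) a wild-type site, where 14.0% and 5.88% of all protein-coding genes did. Gene length was not taken into account in these shares. The relatives run from 11.5 kb (GRM2) to 1118 kb (OPCML), most of them above the median of 24.1 kb over all protein-coding genes. Of 6 other transporter genes of the SLC1A family, only SLC1A6, a transporter of cerebellar Purkinje cells, had sites, 1 in each list. Of 7 other metabotropic glutamate receptor genes, only GRM2 had sites, again 1 in each. Of 4 other IgLON genes, OPCML held 5 double-knockout sites and 1 wild-type site and IGLON5 held 3 and 1. In the delta-catenin subfamily ARVCF held 1 in each list and PKP4 2 in the double knockout alone. Of the genes with a KIND domain besides KNDC1, SPIRE1, which nucleates actin, held 1 in each list and FRMPD2 1 in the double knockout alone. The 4 relatives with 1 site in each list (SLC1A6, GRM2, ARVCF and SPIRE1) had a larger share of the wild-type list, at −1.64 per 10000 sites each, and the other 4 with a site had a larger share of the double-knockout list. No relative held more wild-type than double-knockout sites by number.

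A list of 55 other genes of synapses and neuronal adhesion was also counted. Of these, 29 (52.7%) held a double-knockout site and 19 (34.5%) a wild-type site, where 14.0% and 5.88% of all protein-coding genes did. The listed genes are long, with a median of 317 kb against 24.1 kb over all protein-coding genes. Of the 29 with a site, 17 (58.6%) had a larger share of the wild-type list, where 35.6% of all genes with a site did. The median double-knockout minus wild-type difference was −0.58 per 10000 sites for those 29 and 1.07 over all genes with a site. Both values depend on how many sites a gene holds, and neither was matched for that or for length. Among all genes with at least 3 wild-type sites, 94.1% had a larger share of the wild-type list. By number the 55 genes held 71 double-knockout and 33 wild-type sites. The scaffold gene SHANK2 held 10 double-knockout and 5 wild-type sites, the glutamate receptor-like gene GRID1 8 and 4, the adhesion genes DSCAM and NRXN2 5 and 2 each, the scaffold gene SHANK1 4 and 3 and the NMDA receptor subunit gene GRIN2A 4 and 1. By number none of these 6 had as many wild-type as double-knockout sites. By share of sites all but GRIN2A were larger in wild type, DSCAM and NRXN2 at only −0.0885 per 10000 sites each. By share of base pairs covered, SHANK2 (11.2 and 7.80 per 10000 bp), NRXN2 (6.37 and 5.49) and GRIN2A were larger in the double knockout. GRID1, DSCAM and SHANK1 stayed larger in wild type. Over the whole list 7 genes had a wild-type site and at least as many wild-type as double-knockout sites.

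Other genes had a like pattern over the 2 lists. At least 3 wild-type sites and at least as many wild-type as double-knockout sites were found in 39 protein-coding genes besides the 5. The 8 with the largest differences were COL22A1, a collagen chain gene, with 5 double-knockout and 6 wild-type sites, ERFL and SEMA4D, a semaphorin gene, with 4 and 5 each, CD5, a receptor gene of lymphocytes, and UNC13A, a gene of synaptic vesicle priming, with 2 and 4 each, and the metalloprotease gene ADAM12, ARHGEF1 and the collagen gene COL18A1 with 5 and 5 each. ERFL lies within ARHGEF1, so its sites count for both genes. After joining into loci COL22A1, ADAM12 and COL18A1 had 5 in each list and ERFL 4 in each. ARHGEF1 had 5 in the double knockout and 4 in wild type. Like KNDC1, the others kept more in wild type. CD5 and UNC13A had 2 in the double knockout and 3 in wild type each, and SEMA4D had 4 and 5.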

How the data were processed

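The data are 2 deposited lists of Tg sites, 1 per genotype, each given its genotype by the genotype word it shares with the titles of the labelled libraries. The tools named in the submitters' processing notes are Bowtie2, MACS2, bedtools and deepTools, with the build hg38. No source used here gives a version, a setting or what each tool did. The deposited score is 10 times the −log10 q, rounded down, in every row of the authors' lists. The deposited ratio is the caller's fold enrichment, and the deposited −log10 p and −log10 q are the caller's own; column 9, the summit offset, was used as deposited by the authors. Values rank sites only within their list.

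Whole reads and background at each summit were recovered from fold and −log10 p, with fold taken as reads plus 1 over background plus 1; 100% of sites fitted within 0.001 on the −log10 p scale, and the step was checked on simulated sites. Double-knockout reads were divided by 1.69, the ratio of the lowest backgrounds, with 1.61 (per bp of the narrowest site, 256 bp in the double knockout and 243 bp in wild type) as an alternative. The lowest background was 1.25 reads in the double knockout and 0.739 in wild type. Total reads per library are unknown. Genes came from RefSeq for GRCh38.p14, which shares primary coordinates with hg38; coordinates are 1-based. Poisson and binomial intervals are exact, at 95%. No test was run, since each genotype has 1 list. The genes, the gene lists and the rule for other named genes (the closest in site numbers, at most 8, family members with sites, the nearest neighbours and the 6 neuronal genes with most sites) were chosen with earlier results of these data known. Python 3.11.15, pandas 2.3.3, NumPy 2.4.6 and SciPy 1.17.1 were used.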

Additional observations from a re-analysis of the deposited data

How the results depend on the processing

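In every setting tried, the 5 genes together took a larger share of the wild-type than of the double-knockout list. The genes were picked by this contrast and the settings recount the same sites, so nothing is read from its direction. The double-knockout minus wild-type difference was −52.4 per 10000 sites and moved most when nearby sites were joined. With sites within 10 kb counted once it was −23.7, from 14 double-knockout and 13 wild-type sites. With overlapping sites joined into loci, an alternative chosen after seeing the data, it was −33.9, and SLC1A7, with the largest difference by sites (−11.4), then had the smallest (−1.77). Taken over base pairs covered, also chosen after seeing the data, it was −52.9. With the double-knockout list shortened to the length of the wild-type list it was −35.2, from 13 and 26 sites. With at least 50% of each site in common required, 52.9% of double-knockout and 34.6% of wild-type sites of the genes were shared. Over the whole lists 21.5% and 54.7% were, so the wild-type share of the genes then lay below that of its list. With the shortened double-knockout list 100% of its 13 sites were shared, where 50.7% of that whole shortened list were. Within 1 Mb of an end lay 17.6% of double-knockout and 19.2% of wild-type sites, all in KNDC1, beside 3.34% and 4.86% of the whole lists. The median ratio of reads was 1.14 by depth alone, 1.28 for fold enrichments and 1.02 over 9 pairs with at least 50% in common, above 1 in each. Over the whole lists it was 0.978, 1.06 and 0.913 in the same order. Since the genes were chosen by these lists, nothing is read from the comparison of ratios. By share of the lists, no single gene turned its direction. By number some did. CTNND2 and KNDC1 had 3 double-knockout and 2 wild-type sites each with sites within 10 kb counted once. With q at or below 0.001, CTNND2 had 3 in each list and NTM 6 and 5. NTM had 5 and 6 with the shortened double-knockout list. SLC1A7 and GRM4 had at least as many wild-type as double-knockout sites throughout. No paired analysis was possible because each genotype has 1 list with no values per library, so no replicate could be left out either. At the strongest summit of a locus there were 10 to 24 wild-type reads. Once double-knockout reads are divided by 1.69, the counting intervals of the lists overlap at each of the 13 loci. These intervals cover counting error only, and a difference at a single locus was not tested.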
